A study of Mus musculus with 9 samples.

Results

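The laminin chain genes Lama3, Lama4, Lama5, Lamb2, Lamb3 and Lamc1, the nidogen genes Nid1 and Nid2 and the perlecan gene Hspg2 were followed across cultures of mouse mammary cells, namely tumorspheres, mammospheres and mammosphere cells that had been induced to differentiate. They were taken by name, with every probe set to which the platform annotation gives 1 of these symbols and no other. This gave 14 probe sets for the 9 genes, of 22626 probe sets in all, and 5 of the genes had 2 probe sets. The question was how the 3 cultures differ in the RNA of basement membrane proteins and of the proteins that link them.

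Total RNA of each preparation was hybridized to 1 MOE430A Gene Chip, with 3 arrays per group and 9 in all. Tumorspheres are non-adherent spheres that the study grew in stem cell medium from independent mammary tumors of MMTV-Neu [N2O2] mice, in which a viral promoter active in mammary epithelium drives the Neu transgene. Mammospheres came from the mammary glands of virgin female FVB/N mice, for which no transgene is named, and were grown in the same medium. Spheres were passaged every 7 days and harvested between passages 3 and 5, and the passage of each array is not given in the sources used here. For differentiation, dispersed mammosphere cells were plated on collagen and kept for 7 days in medium with serum, so that attachment, collagen and serum changed together. The cultures were started from bulk cell populations, and the age of the tumor-bearing mice is not given in the sources used here. The study gives an age for the gland donors only, so that the ages of tumor and gland donors cannot be compared, and may differ. Nothing in the labels pairs a mammosphere array with an array of differentiated cells.

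Basement membranes are thin sheets of matrix under epithelia and around vessels, muscle and fat cells. Laminins are trimers of an alpha, a beta and a gamma chain that assemble into a sheet and bind integrins and dystroglycan on the cell surface through the alpha chain. Nidogens bind the gamma 1 chain and connect the laminin sheet to type IV collagen, and perlecan is a heparan sulfate proteoglycan that binds laminins, nidogens and growth factors. In the mammary gland the basement membrane lies next to the myoepithelial cells, and contact with laminin is known to be needed for milk gene expression in cultured mammary epithelial cells.

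The deposited values are intensities on a linear scale, with array medians of 84.0 to 88.6. Levels here are log2 intensities after addition of 8.67 and quantile normalization, and Spearman correlations between arrays of a group were at least 0.985. A change was called at an adjusted p under 0.05 from limma, fitted to all 22626 probe sets at once. Array codes of the tumorspheres (1099A, 1100A and 1101A) stand apart from those of the other cultures (858A to 863A), and the labels do not say what the codes stand for. A difference that goes with the codes and one between tumorspheres and the rest cannot be told apart. The study describes the 3 RNAs of a group as from independent cell populations without naming mice for the mammosphere cultures, so that p values measure the spread between these populations. In bulk RNA, fewer cells of a type and less RNA per cell cannot be told apart.

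In mammospheres the 8 fibroblast markers had mean levels between percentiles 89.9 and 99.99 of all probe sets, with the collagen gene Col1a2 highest. The 10 luminal markers ranged from percentile 13.7 to 83.3 there, with 8 below percentile 50 and the tight junction gene Cldn3 highest, and the 9 myoepithelial and basal markers from 21.8 to 91.2, with 6 below percentile 50 and the actin gene Acta2 highest. The summed level of 10 luminal markers was 12.28 to 12.91 on the log2 scale in tumorspheres, 9.72 to 9.88 in mammospheres and 9.83 to 10.12 after induced differentiation. That of 9 myoepithelial and basal markers was 9.98 to 10.10, 9.88 to 9.996 and 11.54 to 12.04 in the same order. Against 18% of all genes, 5 of the 9 markers were called higher after differentiation than in mammospheres. These were Trp63, a factor of basal epithelium, and the contractile genes Acta2, Mylk, Cnn1 and Myh11, which muscle cells and some fibroblasts express too, while Krt5, Krt14 and Krt17 were not called. The fibroblast sum over 8 markers was 14.74 to 15.01, 14.90 to 14.999 and 15.10 to 15.12. The endothelial sum over 8 markers was 9.36 to 9.52, 9.52 to 9.60 and 9.77 to 9.82, and in mammospheres these markers ranged from percentile 7.05 for Vwf to 84.6 for Eng, with 6 of 8 below percentile 50. Sums over 5 pericyte markers were 9.90 to 10.32, 10.50 to 10.90 and 10.36 to 10.55, those over 3 adipocyte markers 8.90 to 9.06, 9.49 to 9.85 and 12.002 to 12.20, where Lpl carried the rise and Adipoq was not called, and those over 6 macrophage markers 9.96 to 10.78, 8.96 to 9.12 and 9.12 to 9.82.

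Against mammospheres, Lama5 and Lamb3 were higher in tumorspheres and Nid2 was lower, while Lama4, Lamb2, Lamc1 and Hspg2 rose in the differentiated cells. Of the 14 probe sets, 4 were called higher in tumorspheres, where 6.5% of all probe sets were, and 2 were called lower, against 7.77%. The 4 were both probe sets of Lama5, that of Lamb3 and 1 of Lama4, and the 2 were that of Nid2 and 1 of Lamc1. After induced differentiation 8 were called higher than in mammospheres, against 16.2% of all probe sets, and 1 was called lower, against 16.9%, a probe set of Nid1. The 8 were both probe sets of Lama4, Lamc1 and Hspg2, the only one of Lamb2 and 1 of Lama5. Tumorspheres compared with the differentiated cells had 1 probe set called higher, that of Lamb3, against 12.2%, and 7 called lower, against 11.5%. The median log2 fold change over the 14 probe sets was 0.082 for tumorspheres against mammospheres, 0.34 for differentiated cells against mammospheres and -0.40 for tumorspheres against differentiated cells, where all probe sets had -0.0015, 0.030 and -0.019. The comparisons share arrays, and their values are given side by side for each gene.

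**Figure D1:**
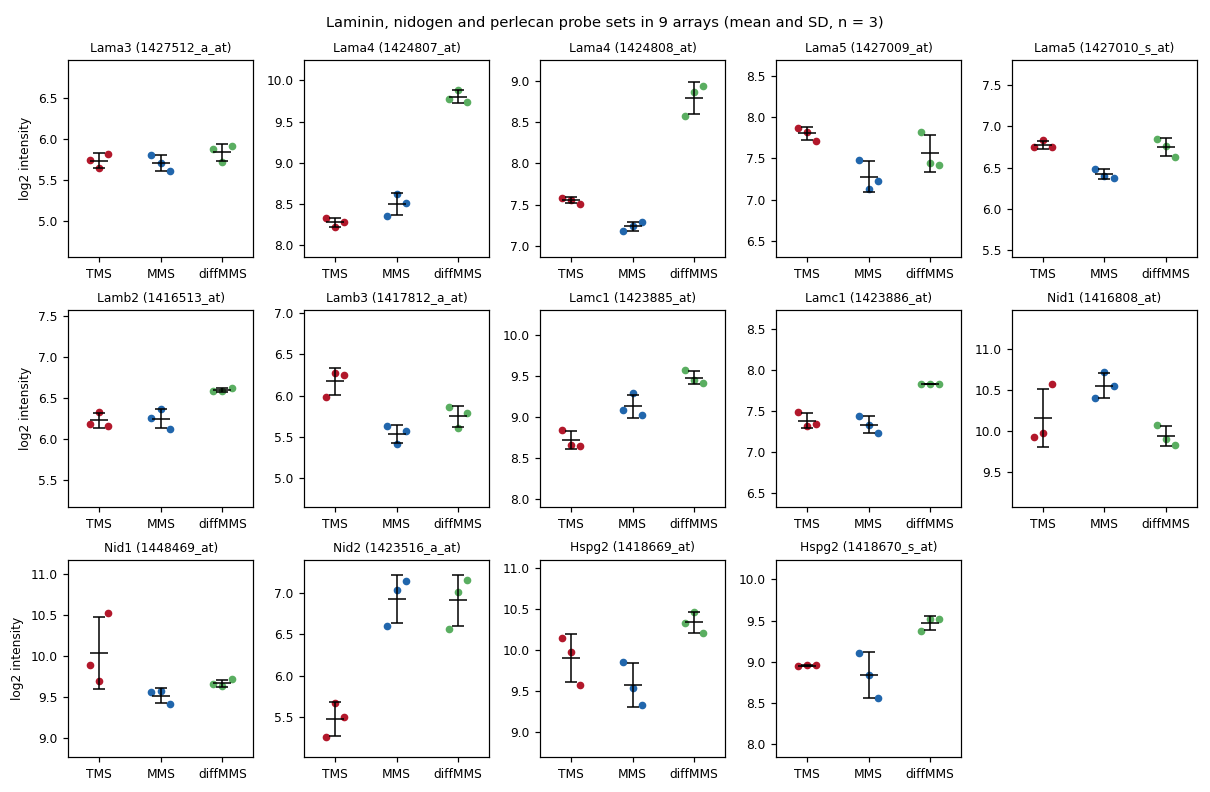
Log2 intensity of each of the 14 probe sets in the 9 arrays by culture, where TMS stands for tumorspheres, MMS for mammospheres and diffMMS for their differentiated cells. Each point is 1 array, the bars give the group mean and SD (n = 3), and every panel spans the same height on the log2 scale. Both Lama4 panels are highest in diffMMS and the Nid2 panel is lowest in TMS.

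Stretches of DNA before the start sites of 3 called genes are shown, of Lama5, called higher in tumorspheres than in mammospheres, and of Hspg2 and Lamb2, both called higher after induced differentiation. They are RefSeq sequences of GRCm38.p6, printed on the strand of the gene from 5′ to 3′ and ended before the first annotated base of the transcript. Capitals mark matches on either strand to the motifs searched, TGANTCA of AP-1, GGGCGG of the GC box and GGAATG of TEAD factors, of which GGGCGG alone occurs in these stretches. Start sites of 5 of the 9 genes were used, Lama5, Lamb2, Lamb3, Nid1 and Hspg2.
Lama5, chr2:180225905-180226109, minus strand: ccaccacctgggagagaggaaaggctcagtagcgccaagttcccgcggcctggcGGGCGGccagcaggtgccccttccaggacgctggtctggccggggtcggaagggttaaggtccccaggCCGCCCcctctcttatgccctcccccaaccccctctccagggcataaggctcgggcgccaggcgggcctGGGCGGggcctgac
Hspg2, chr4:137468553-137468750, plus strand: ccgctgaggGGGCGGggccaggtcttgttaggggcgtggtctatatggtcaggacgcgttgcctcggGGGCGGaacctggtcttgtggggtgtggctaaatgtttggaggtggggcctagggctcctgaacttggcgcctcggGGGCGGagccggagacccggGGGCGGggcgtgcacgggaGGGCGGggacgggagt
Lamb2, chr9:108479612-108479846, plus strand: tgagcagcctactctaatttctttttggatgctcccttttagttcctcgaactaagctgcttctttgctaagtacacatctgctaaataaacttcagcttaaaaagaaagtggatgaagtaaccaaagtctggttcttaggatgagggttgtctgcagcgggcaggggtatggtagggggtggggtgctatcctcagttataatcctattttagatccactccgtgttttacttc
The printed stretches are shorter than the 250 bases searched before each start, which run past the first annotated base of the gene where it lies further upstream. In the full 250 bases the GC box occurred 4 times for Lama5, of which 3 are in the printed stretch, 5 times for Hspg2 and once for Nid1, and in none of the windows of Lamb2 and Lamb3. It was in 32.7% of 32851 such windows of all genes. GGAATG was found once for Nid1 and once before a second start of Lamb3, and in 12.6% of all windows. TGANTCA was in none of these windows and in 6.75% of all. The windows of Lamb3 lie within the annotated span of the gene. A match is a string of letters, and binding was not measured.

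Among the alpha chains, Lama4 rose after induced differentiation on both of its probe sets, Lama5 was higher in tumorspheres than in mammospheres on both of its own, and Lama3 was not called in any comparison. Lama4 encodes the alpha 4 chain of laminins in vessel walls, fat and other mesenchymal tissue. Probe set 1424807_at of Lama4 had log2 intensities of 8.33, 8.22 and 8.28 in tumorspheres, 8.35, 8.62 and 8.51 in mammospheres and 9.78, 9.89 and 9.74 after induced differentiation. All arrays of the differentiated cells lay above the other 6, with a log2 fold change against mammospheres of 1.31 ± 0.0837 (SE, limma adjusted p = 3.4e-07), a 2.48-fold level. Against the differentiated cells, tumorspheres stood at -1.53 (adjusted p = 9.0e-08). The other probe set, 1424808_at, read 7.58, 7.56 and 7.51 in tumorspheres, 7.18, 7.24 and 7.29 in mammospheres and 8.57, 8.86 and 8.95 after induced differentiation. Again the differentiated cells stood apart from all others, with 1.56 ± 0.0940 (SE, limma adjusted p = 2.0e-07) against mammospheres and -1.24 (adjusted p = 1.5e-06) for tumorspheres against the differentiated cells. Between tumorspheres and mammospheres the probe sets of Lama4 had opposite signs. The first gave -0.22 (adjusted p = 0.109), with tumorspheres below all mammosphere arrays, and the second 0.31 (adjusted p = 0.0441), with tumorspheres above them. The call of the second did not hold on the deposited scale, after centring, at a pseudocount of 32 or when any 1 of arrays 1099A, 1100A, 858A, 859A, 860A and 862A was left out, with adjusted p values of 0.0556 to 0.132. The first gave -0.35 (adjusted p = 0.0470) with centred arrays and -0.25 (adjusted p = 0.0308) with array weights.

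Lama5 encodes the alpha 5 chain, the most widespread alpha chain of adult epithelial basement membranes. On probe set 1427010_s_at its log2 intensities were 6.75, 6.83 and 6.75 in tumorspheres, 6.49, 6.40 and 6.37 in mammospheres and 6.85, 6.76 and 6.63 after induced differentiation. The mammospheres lay below both other cultures without overlap, by a log2 fold change of tumorspheres against mammospheres of 0.36 ± 0.0779 (SE, limma adjusted p = 0.00924), and of differentiated cells against mammospheres of 0.33 (adjusted p = 0.00667). Tumorspheres and differentiated cells overlapped (0.029, adjusted p = 0.820). On probe set 1427009_at the values were 7.87, 7.83 and 7.72 in tumorspheres, 7.48, 7.13 and 7.23 in mammospheres and 7.82, 7.45 and 7.43 after induced differentiation. Tumorspheres were again above all mammosphere arrays by 0.53 ± 0.119 (SE, limma adjusted p = 0.0120), while the differentiated cells overlapped both other groups, with 0.28 (adjusted p = 0.0869) against mammospheres and 0.24 (adjusted p = 0.169) for tumorspheres against them. The call against mammospheres was lost without array 859A or 860A (adjusted p = 0.0640 and 0.0543). The difference between mammosphere cultures passed without array 858A (adjusted p = 0.0378), and that between tumorspheres and differentiated cells without array 861A (adjusted p = 0.0304) or when arrays were weighted (adjusted p = 0.0361).

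Lama3 encodes the alpha 3 chain of the laminin that anchors epithelia through hemidesmosomes, which pairs with the beta 3 chain of Lamb3. Its only probe set had log2 intensities of 5.74, 5.64 and 5.82 in tumorspheres, 5.81, 5.71 and 5.61 in mammospheres and 5.88, 5.72 and 5.92 after induced differentiation. The 3 groups overlap, and the log2 fold changes were 0.026 (adjusted p = 0.879) for tumorspheres against mammospheres, 0.13 (adjusted p = 0.227) for differentiated cells against mammospheres and -0.11 (adjusted p = 0.369) for tumorspheres against differentiated cells. The mean of this probe set over the 9 arrays stood above only 28.7% of all probe sets, so that a low signal limits what could be detected.

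Of the beta chains, Lamb3 was highest in tumorspheres and Lamb2 in the differentiated cells. Lamb3 had log2 intensities of 5.99, 6.28 and 6.25 in tumorspheres, 5.63, 5.41 and 5.56 in mammospheres and 5.86, 5.60 and 5.79 after induced differentiation. Each tumorsphere array lay above all other arrays, with a log2 fold change of 0.64 ± 0.0968 (SE, limma adjusted p = 0.00119) against mammospheres, a 1.56-fold level, and of 0.42 (adjusted p = 0.00738) against the differentiated cells. The mammosphere cultures overlap (0.22, adjusted p = 0.109), and with the values as deposited they gave 0.30 (adjusted p = 0.0341). The luminal marker sum, given above, was also highest in tumorspheres, and its part in this difference was not tested. Like Lama3, this probe set is dim, with a mean above 30.0% of all probe sets, and both were left out by the filter on dim probe sets, which kept the other 12.

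Lamb2 encodes the beta 2 chain, known from kidney glomeruli, vessels and the neuromuscular junction. It had log2 intensities of 6.18, 6.33 and 6.16 in tumorspheres, 6.25, 6.36 and 6.12 in mammospheres and 6.58, 6.58 and 6.62 after induced differentiation. The differentiated cells lay above all 6 other arrays and spread little, with 0.35 ± 0.0801 (SE, limma adjusted p = 0.00588) against mammospheres. Tumorspheres stood at -0.37 (adjusted p = 0.00553) against them and at -0.02 (adjusted p = 0.908) against mammospheres, with which they overlap.

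Lamc1 encodes the gamma 1 chain, which most laminins share and which carries the nidogen binding site. It was highest after induced differentiation on both probe sets. Probe set 1423885_at read 8.85, 8.67 and 8.65 in tumorspheres, 9.09, 9.29 and 9.02 in mammospheres and 9.57, 9.46 and 9.42 after induced differentiation. No groups overlap here. The log2 fold change was 0.35 ± 0.0902 (SE, limma adjusted p = 0.0113) for differentiated cells against mammospheres, -0.41 (adjusted p = 0.00957) for tumorspheres against mammospheres and -0.76 (adjusted p = 6.7e-05) for tumorspheres against differentiated cells. The first of these depended on the scaling, with 0.13 (adjusted p = 0.264) for the values as deposited and 0.078 (adjusted p = 0.547) for centred arrays, and was lost without array 860A (0.29, adjusted p = 0.0564). The second was lost without array 859A (-0.33, adjusted p = 0.0521). Probe set 1423886_at gave 7.49, 7.32 and 7.34 in tumorspheres, 7.45, 7.33 and 7.23 in mammospheres and 7.83, 7.83 and 7.83 after induced differentiation. Its differentiated arrays were nearly equal and lay above the other 6, by 0.49 ± 0.0794 (SE, limma adjusted p = 5.8e-04) against mammospheres, with -0.45 (adjusted p = 0.00153) for tumorspheres against them. Tumorspheres and mammospheres overlap on this probe set (0.047, adjusted p = 0.761), so that the lower level of Lamc1 in tumorspheres than in mammospheres rests on 1 of its 2 probe sets.

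The nidogens did not move alike. Nid2, which encodes nidogen 2, had log2 intensities of 5.25, 5.67 and 5.50 in tumorspheres, 6.60, 7.04 and 7.15 in mammospheres and 6.56, 7.02 and 7.16 after induced differentiation. Every tumorsphere array lay below the other 6, with a log2 fold change of -1.46 ± 0.171 (SE, limma adjusted p = 2.2e-04) against mammospheres and of -1.44 (adjusted p = 6.9e-05) against the differentiated cells. Of the 14 probe sets this was the widest measured difference between tumorspheres and mammospheres. The tumorsphere mean of Nid2 stood above only 22.9% of all probe sets, against 59.9% for the mammosphere mean, and without detection calls its level there may be near background, so that the size of the fold is uncertain. The mammosphere cultures overlap in full, at -0.016 (adjusted p = 0.954). The endothelial marker list also had members below mammospheres in tumorspheres, 4 of 8 called lower, as had 2 of 5 pericyte markers, against 7.11% of all genes. The 4, Pecam1, Cdh5, Tek and Emcn, had mammosphere means below percentile 50. Eng and Kdr, the brightest of the endothelial list, were not called. The part of these cell types in the Nid2 difference was not tested.

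Nid1 encodes nidogen 1, the more widely expressed of the pair. On probe set 1416808_at its log2 intensities were 9.93, 9.98 and 10.57 in tumorspheres, 10.41, 10.72 and 10.55 in mammospheres and 10.08, 9.91 and 9.84 after induced differentiation. The differentiated cells lay below all mammosphere arrays, with -0.62 ± 0.150 (SE, limma adjusted p = 0.00814). Tumorsphere array 1101A stood among the mammospheres and the other tumorsphere arrays among the differentiated cells, and the differences of tumorspheres were -0.40 (adjusted p = 0.104) against mammospheres and 0.22 (adjusted p = 0.324) against the differentiated cells. Without array 1101A tumorspheres were called lower than mammospheres (-0.61, adjusted p = 0.00178), as they were when arrays were weighted (-0.51, adjusted p = 0.00425). Probe set 1448469_at read 9.89, 9.70 and 10.53 in tumorspheres, 9.57, 9.57 and 9.41 in mammospheres and 9.66, 9.64 and 9.72 after induced differentiation. Here tumorspheres lay above the mammospheres (0.52, adjusted p = 0.0517) and overlapped the differentiated cells (0.37, adjusted p = 0.123), while the mammosphere cultures differed by 0.15 (adjusted p = 0.4997), with -0.090 for the values as deposited and -0.14 for centred arrays. The difference from mammospheres passed without array 1100A (0.69, adjusted p = 0.0153), without array 1101A (0.28, adjusted p = 0.0406) and with dim probe sets left out (adjusted p = 0.0458), and that from the differentiated cells without array 1100A (0.54, adjusted p = 0.0298). Over the 9 arrays the 2 probe sets of Nid1 had a Pearson correlation of 0.084, where those of the other genes with 2 had 0.76 to 0.93. What each probe set detects was not tested, and no single direction is given for Nid1.

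Perlecan, encoded by Hspg2, was highest after induced differentiation. Probe set 1418670_s_at had log2 intensities of 8.94, 8.96 and 8.96 in tumorspheres, 9.11, 8.84 and 8.55 in mammospheres and 9.38, 9.52 and 9.52 after induced differentiation. The differentiated cells lay above the other 6 arrays, with 0.64 ± 0.116 (SE, limma adjusted p = 0.00133) against mammospheres, a 1.56-fold level. Tumorspheres were below the differentiated cells (-0.52, adjusted p = 0.00629) and lay within the wider range of the mammospheres (0.12, adjusted p = 0.571). Probe set 1418669_at read 10.14, 9.98 and 9.57 in tumorspheres, 9.86, 9.54 and 9.32 in mammospheres and 10.33, 10.46 and 10.21 after induced differentiation. It rose with differentiation as well, by 0.76 ± 0.153 (SE, limma adjusted p = 0.00265) against mammospheres. After centring these rises were smaller, 0.48 here and 0.39 on the first probe set, and both were still called. Tumorspheres stood at -0.44 (adjusted p = 0.0592) against the differentiated cells without overlap, a difference that passed without array 1099A or 858A (adjusted p = 0.0221 and 0.0443) and in the set without dim probe sets (adjusted p = 0.0499). Against mammospheres tumorspheres stood at 0.32 (adjusted p = 0.196), with overlap, which passed when array 1101A was left out (0.49, adjusted p = 0.0254) and when arrays were weighted (0.38, adjusted p = 0.0431).

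**Figure D2:**
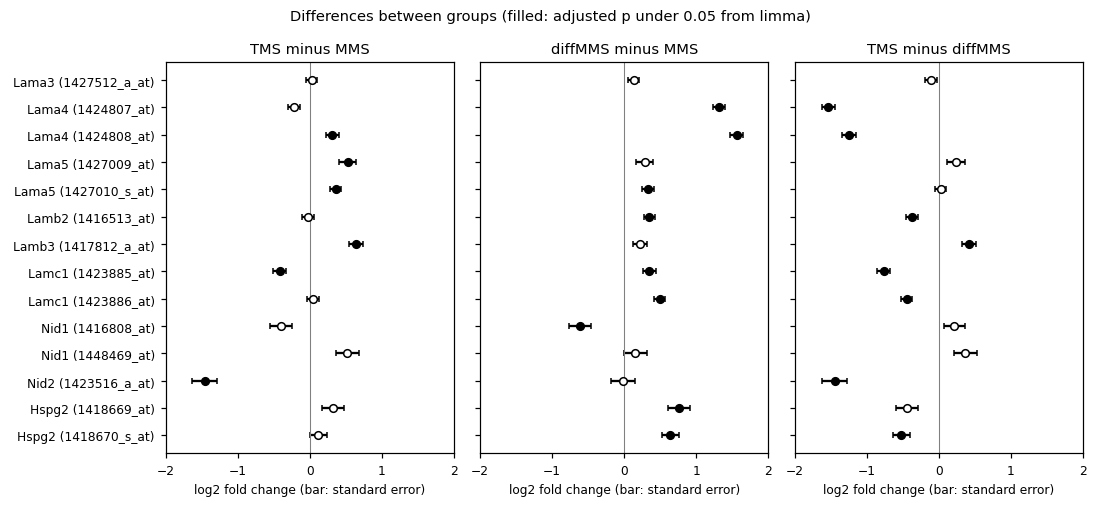
Log2 fold change of the 14 probe sets in the 3 comparisons, with limma's standard error as bars and filled points for an adjusted p under 0.05. In diffMMS minus MMS the filled points lie to the right of 0 except for 1 probe set of Nid1, and in TMS minus diffMMS they lie to the left except for Lamb3.

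The rises after induced differentiation came with other changes between the mammosphere cultures. Beside the myoepithelial and adipocyte sums given above, 4 of 8 fibroblast markers were called higher in the differentiated cells and 3 lower. Of 8 endothelial markers 1 was called higher, Eng, and 1 lower, Emcn. In this comparison 18% of all genes were called higher and 16.1% lower, and the endothelial counts did not exceed these shares. The part of these cell types in the levels of Lama4, Lamb2, Lamc1 and Hspg2 was not tested.

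Partners of these proteins were counted in 6 lists with 57 measured genes, each with its brightest probe set. Over all 12393 genes, 6.21% were called higher and 7.11% lower in tumorspheres than in mammospheres, 18% and 16.1% in differentiated cells than in mammospheres, and 12.3% and 12.7% in tumorspheres than in differentiated cells. Of the 4 other laminin chains measured, Lama2 was lower in tumorspheres than in mammospheres (-0.52, adjusted p = 0.00559) and the other 3 were not called. After differentiation 2 were higher than in mammospheres and 1 was lower, led by Lamb1 (0.47, adjusted p = 0.00117) and Lama2 (-1.09, adjusted p = 8.5e-06). Lama2, the alpha chain of muscle laminins, fell where Lama4 rose. For tumorspheres against differentiated cells 1 was higher, Lama2 (0.57, adjusted p = 0.00160), and 2 were lower, with Lamb1 at -0.43 (adjusted p = 0.00266). Lamb1, the beta 1 chain, has 2 further probe sets, whose log2 fold changes from mammospheres were -0.74 and -0.47 in tumorspheres and -0.015 and 0.14 in differentiated cells. Both were called lower in tumorspheres than in mammospheres (adjusted p = 0.0105 and 0.00375), where the brightest gave 0.038 (adjusted p = 0.823), and all 3 were called lower in tumorspheres than in differentiated cells (-0.72, -0.62 and -0.43).

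Among 6 genes of the type IV collagen network, 2 were higher and 2 lower in tumorspheres than in mammospheres, and the same counts held after induced differentiation. Col4a1 and Col4a2, the chains of the common network, were lower than in mammospheres in tumorspheres (-0.82, adjusted p = 0.00207 and -1.04, adjusted p = 1.0e-03) and in the differentiated cells (-0.94, adjusted p = 2.8e-04 and -0.88, adjusted p = 9.8e-04). Col4a5, a chain of a more restricted network, was higher in both (0.83, adjusted p = 3.6e-04 and 1.13, adjusted p = 7.2e-06). Tumorspheres against differentiated cells had 1 called, Col4a6, at 0.39 (adjusted p = 0.00638). Of 13 other basement membrane proteins, 4 were higher and 2 lower in tumorspheres than in mammospheres, with Tinagl1, a secreted matrix protein, at 1.06 (adjusted p = 8.2e-05) and Fbln1, a fibulin, at -0.50 (adjusted p = 0.0143). After differentiation 4 were higher and 4 lower, with the fibulin Fbln2 at 1.38 (adjusted p = 5.7e-07) and Col15a1, a basement membrane collagen, at -1.97 (adjusted p = 8.0e-08). Tumorspheres against differentiated cells had 6 higher and 5 lower, led by the same genes with 1.95 for Col15a1 and -1.46 for Fbln2.

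The list of 15 laminin receptor and hemidesmosome genes had 5 called higher and 10 not called for tumorspheres against mammospheres, with a median log2 fold change of 0.26, against 0.0023 over all genes. The 5 were Itga3, Itga6 and Itgb4, integrin subunits that bind laminins, the dystroglycan gene Dag1 and the syndecan Sdc4, which differed most (2.95, adjusted p = 4.2e-05). The integrin subunits Itga2, Itga7 and Itgb1 of the same list were not called (0.072, 0.00015 and 0.029). The luminal marker sum was also highest in tumorspheres, and its part in the levels of these receptors was not tested. After differentiation 7 of the 15 genes were higher than in mammospheres and 3 lower, with Sdc4 at 2.21 (adjusted p = 8.8e-05) and Sdc1 at -2.08 (adjusted p = 1.5e-08). Tumorspheres against differentiated cells had 4 higher and 2 lower, with Itga6 at 2.10 (adjusted p = 6.1e-07) and Dst, a plakin of hemidesmosomes, at -0.81 (adjusted p = 2.1e-05). With the probe set of largest F for each gene of this list, tumorspheres had 5 higher, 1 lower and 9 not called against mammospheres. Against differentiated cells they then had 6 higher and 3 lower, and differentiated cells had the same counts against mammospheres. Of 10 proteases that can cleave laminins or their partners, 1 was higher in tumorspheres than in mammospheres, the cathepsin Ctss (0.95, adjusted p = 0.00416), and 1 was lower, Mmp2 (-0.58, adjusted p = 0.0145). The macrophage sum was also higher in tumorspheres. Against 6.21% of all genes, 2 of 6 markers were called higher there, Lyz2 (2.29, adjusted p = 7.8e-04) and Csf1r (0.43, adjusted p = 0.0296). Cd68, Adgre1, Itgam and Ptprc were not called. The part of macrophages in the level of Ctss, which they express, was not tested. After differentiation 2 of the 10 proteases were higher than in mammospheres and 3 lower, against 18% and 16.1% of all genes. Htra1 stood at 1.27 (adjusted p = 1.4e-05) and Mmp9 at -1.26 (adjusted p = 0.00117). Tumorspheres against differentiated cells had 3 higher and 1 lower, with 1.39 for Mmp9 and -1.26 for Htra1. Of 9 enzymes that build or trim heparan sulfate, the chains that perlecan carries, 2 were called higher for tumorspheres against mammospheres and 7 were not called, with the sulfatase Sulf2 at 0.56 (adjusted p = 0.00666). In the differentiated cells 1 was higher than in mammospheres, again Sulf2 (1.11, adjusted p = 1.7e-05), and 2 were lower, with the sulfotransferase Hs2st1 at -0.41 (adjusted p = 0.0102). Among 9 genes these counts lie near the shares of all genes. For tumorspheres against differentiated cells 3 were higher and 2 lower, with Hs2st1 at 0.52 (adjusted p = 0.00347) and Sulf2 at -0.56 (adjusted p = 0.00380).

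**Figure D3:**
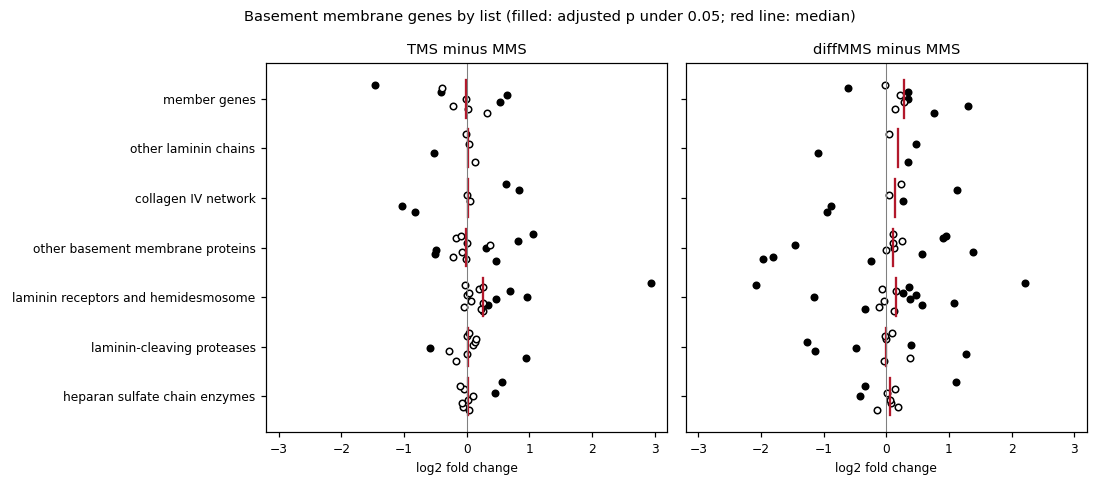
Log2 fold change of the 9 laminin, nidogen and perlecan genes (top row) and of the 57 genes of the 6 lists, each with its brightest probe set, for TMS minus MMS and diffMMS minus MMS. Points are genes, filled at an adjusted p under 0.05, and the red line is the median of a list. The median of the 9 genes is -0.020 in the first panel and 0.28 in the second.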

How the data were processed

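RNA of 9 preparations was measured on MOE430A arrays. The authors deposited intensity values per probe set on a linear scale, already summarised and scaled in a way not given in the sources used here. The table has no detection calls. After removal of 64 control probe sets of 22690, 8.67 (10% of the median) was added, log2 was taken and the arrays were quantile normalized, because quartiles differed by up to 0.134, above a limit of 0.1. Of the rest, 20380 probe sets carry 1 gene symbol, 691 several and 1555 none. All 3 groups entered 1 fit in limma 3.58.1 (R 4.3.3, lmFit and eBayes with an intensity trend), with 6 degrees of freedom left for the spread. Two-sided p values were adjusted for 22626 probe sets in each comparison (Benjamini-Hochberg). The script was tested on simulated data.

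The genes, the lists, the markers and the alternatives were chosen with earlier results of these data known. Every member was named with each probe set, and from each list the called genes with the largest rise and the largest fall per comparison, to which Col4a1, Col4a2, Itga3, Itgb4 and Dag1 were added after their values were seen. Of each pair of probe sets both are given in full because their calls differed. In lists each gene entered with its brightest probe set, and marker sums add linear levels. Alternatives were the deposited scale, centring, other pseudocounts, a filter at the 40th percentile, array weights, other variance models and thresholds, fits of the 6 arrays compared, and each array left out. Protein sequences were not used here. Motifs were searched in 250 bases before RefSeq start sites. Plots were made in Python 3.11.15 with matplotlib 3.10.9.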

Additional observations from a re-analysis of the deposited data

How the results depend on the processing

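The small number of arrays, 3 in each group, and the dim signals of Lama3 and Lamb3 limit what could be called. Each of the 42 differences of a probe set was read under up to 20 alternatives. Those that changed only a threshold used the main fit, so that they could not change a direction. Of the 834 values 762 kept direction and call, 35 lost the call, 17 gained it and 20 changed sign. The 762 include differences that were called neither before nor after. The calls of Lama4 for differentiated cells against both other cultures and of Nid2 for tumorspheres against both others were lost under none of the alternatives. Those of Lamb2, Hspg2 and Lamc1 (1423886_at) for differentiated cells, of Lamb3 for tumorspheres, of Nid1 (1416808_at) and of Lama5 (1427010_s_at) were lost under 1 of them, an added threshold of 1 on the log2 fold change.

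The sign changes all belong to differences that were not called. For tumorspheres against mammospheres they were Hspg2 (1418670_s_at) at -0.0028 on the deposited scale, -0.048 after centring and -0.022 without array 860A, Lama3 at -0.027 with array weights, -0.018 without array 1101A and -0.024 without array 860A, Lamb2 at 0.041 as deposited, 0.043 with array weights, 0.0026 without array 1099A, 0.011 without array 1101A and 0.037 without array 859A, and Lamc1 (1423886_at) at -0.0057 without array 1099A and -0.0049 without array 860A. For differentiated cells against mammospheres they were Nid1 (1448469_at) at -0.090 as deposited and -0.14 with centred arrays, and Nid2 at 0.076 with array weights, 0.038 without array 859A, 0.093 without array 860A and 0.16 without array 861A. Lama5 (1427010_s_at) stood at -0.030 for tumorspheres against differentiated cells without array 863A.

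An added threshold of 1 on the log2 fold change moved the counts of probe sets to 0 higher and 1 lower for tumorspheres against mammospheres, 2 higher and 0 lower for the mammosphere cultures and 0 higher and 3 lower for tumorspheres against differentiated cells. The 6 lists then counted 2 and 1, 6 and 8, and 6 and 5 genes, against 14 and 6, 18 and 15, and 18 and 12. At an adjusted p under 0.01, 2 probe sets were higher in tumorspheres than in mammospheres. With array weights 4 were lower in that comparison, and 2 were higher in tumorspheres than in differentiated cells, where leaving out dim probe sets gave 0. With each array left out, the ranges were 2 to 6 higher and 1 to 3 lower for tumorspheres against mammospheres, with 2 higher without array 859A or 860A, 7 to 9 higher and 1 lower for the mammosphere cultures, and 1 to 2 higher and 7 to 8 lower for tumorspheres against differentiated cells. Taking for each listed gene its probe set of largest F moved no count of the 6 lists together by more than 1.5 times.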

Other observations

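The 2 genes with the widest range of group means were Lama4 and Nid2, and the genes most like each were taken by Pearson correlation over the 9 arrays, as a description without a test. Group differences set most of such a correlation, and the arrays of a group share their culture conditions. Closest to Lama4 (1424808_at) were Grb14 (r = 0.995), an adaptor of the insulin receptor, Scp2 (r = 0.995), a sterol carrier, the RNA host gene Snhg1 (r = 0.994), the amino acid transporter Slc1a4 (r = 0.994) and the host gene Gas5 (r = 0.994). Their log2 fold changes of differentiated cells against mammospheres were 2.02, 0.86, 0.92, 0.92 and 2.17. Closest to Nid2 were Hikeshi (r = 0.964), Ipo4 (r = 0.964) and Ppp4r2 (r = 0.962), followed by Armcx2 (r = 0.956) and Sh3bgrl (r = 0.953), at -0.39, -0.41, -0.40, -0.66 and -0.55 for tumorspheres against mammospheres. Hikeshi and Ipo4 encode nuclear import factors. The correlations of Nid2 are lower than those of Lama4, and none of these genes is a matrix gene.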
